A study of Mus musculus with 2 samples.

Results

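The cells described here are those of 1 of 3 pituicyte clusters of the mouse neurohypophysis (NH), listed as pituicytes c, which was singled out for its high share of mitochondrial transcripts. They were recovered from a deposited table of mean values per cluster, by solving which cells make up each mean, and numbered 54 of 196 pituicytes and of 528 cells in all. The other pituicytes were 87 cells of pituicytes a and 55 of pituicytes b. All cells came from dissected NH tissue of untreated C57BL/6 male mice of 3 months of age, in 2 pools of 5 mice each, with 1 library per pool. The pools were replicates of a single condition, and neither the mice within a pool nor the cells are replicates. The dissected tissue also held cells of the neighbouring intermediate lobe (IL).

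Pituicytes are the resident astroglia of the NH. They surround the axon terminals from which oxytocin and vasopressin enter the blood, and they can engulf these terminals or withdraw from them as hormone demand changes. Mitochondrial transcripts come from a separate circular genome that encodes core subunits of the respiratory chain and ATP synthase, and their share of all transcripts is a common measure of cell quality in droplet sequencing, where cells that lose cytoplasmic RNA keep their mitochondria. It also differs between cell types with their energy use.

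Pool 1 held 38 cells of pituicytes c among 108 pituicytes (35.2%, exact Clopper-Pearson 95% interval 26.2 to 45.0%), and pool 2 held 16 among 88 (18.2%, interval 10.8 to 27.8%). The mean over pools was 26.7% ± 12.02 (SD, n = 2). Intervals here cover counting error only. Pituicytes a made up 31.5% of the pituicytes of pool 1 and 60.2% of those of pool 2, and pituicytes b 33.3% and 21.6%. The make-up of the pituicytes thus differed between pools of the same condition. No barcode was shared between the pools.

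Values are counts of unique molecular identifiers (UMIs), each standing for 1 captured mRNA molecule. The counts of pituicytes c were summed per pool, to 107613 UMIs in pool 1 and 62780 in pool 2. The sums of pituicytes a were 69119 and 152532 UMIs, and those of pituicytes b 58923 and 38168. Levels are given as CPM, UMIs per 1000000 of such a sum. The clusters were drawn in the study from these same counts, so a difference between them is a description of what the clustering separated. The adjusted p-values below, from edgeR's quasi-likelihood test, measure only whether a difference was large beside the spread between pools.

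The 4 markers of pituicytes c were present at the level of the other pituicytes. *Col25a1*, which encodes a transmembrane collagen, had 1478 CPM in pituicytes c of pool 1 and 1641 in pool 2. It had 1968 and 1796 CPM in pituicytes a and 1460 and 1572 in pituicytes b. Pituicytes c thus fell within the range of b in pool 1, above it in pool 2 and below a in both.

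*Scn7a*, a sodium-sensing channel of glia, had 1459 and 2421 CPM in pituicytes c, beside 2040 and 1606 in a and 1595 and 1415 in b. *Gja1*, the gap junction protein connexin 43 of astroglia, had 576 and 558 CPM in pituicytes c, 608 and 937 in a and 730 and 472 in b. *Vegfa*, a growth factor that maintains fenestrated vessels, had 539 and 430 CPM in pituicytes c, 506 and 715 in a and 441 and 210 in b. Pituicytes c overlapped with both a and b for *Scn7a* and *Vegfa*, and for *Gja1* they lay within the range of b and below a. The log2 fold changes of pituicytes c over the mean of a and b were -0.05 for *Col25a1* (SE 0.28), 0.27 for *Scn7a* (SE 0.29), -0.21 for *Gja1* (SE 0.33) and 0.17 for *Vegfa* (SE 0.34).

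**Figure D1:**
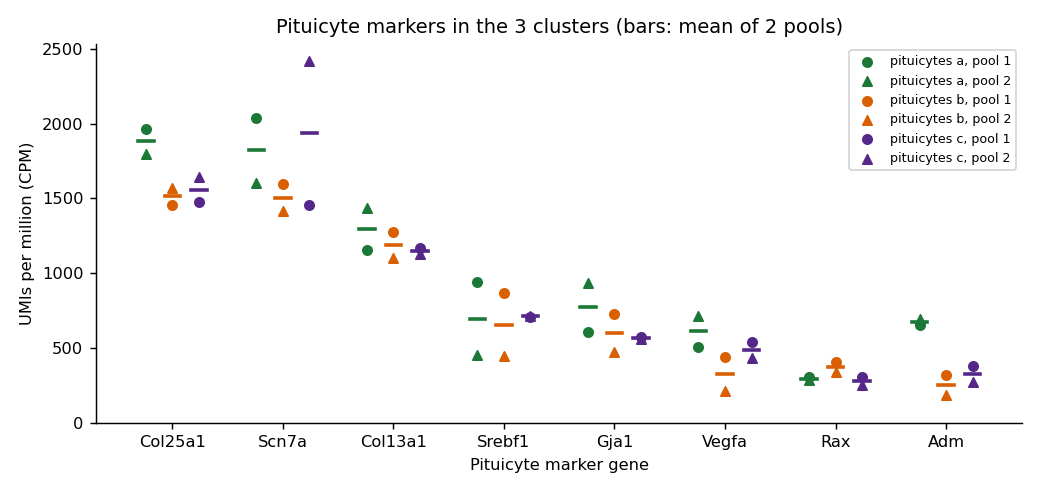
Level (CPM, linear axis) of 8 pituicyte marker genes in pituicytes a, b and c. Circles are pool 1, triangles pool 2 and bars the mean of both pools; the 2 points of pituicytes c lie among or near those of a and b for each gene, and *Adm* was highest in a in both pools.

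A UMI of *Col25a1* was found in 48 of the 54 cells (88.9%, interval 77.4 to 95.8%). *Scn7a* was found in 87.0% of them, *Gja1* in 79.6% and *Vegfa* in 74.1%. In IL cells, the endocrine cells of the neighbouring lobe, the shares were 4.05, 6.76, 2.03 and 1.35% in the same order of genes, at a median of 3249 UMIs per cell against 2782 in pituicytes c. With every cell thinned to 1000 UMIs the shares in pituicytes c were 77.8, 72.2 and 44.4% for the first 3 markers and 27 of 54 cells for *Vegfa*, and those in IL cells at most 4.05%. All 4 markers thus stood above the share that free RNA or misassigned molecules gave in cells that should lack them.

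Of the 12 genes listed as pituicyte markers, 10 passed the filter on low counts and none was called between pituicytes c and the mean of a and b. Across all genes 4 of 2764 were called (0.145%). The median log2 fold change of the 10 was 0.05, beside 0.04 over all genes tested. *Srebf1*, a regulator of lipid synthesis, had 706 and 717 CPM in pituicytes c, and *Col13a1*, another transmembrane collagen, had 1171 and 1131. *Rax*, a transcription factor of the ventral hypothalamus and its tanycytes, had 307 and 255 CPM.

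*Adm*, which encodes the vasodilator peptide adrenomedullin, had 381 and 271 CPM in pituicytes c, 651 and 695 in a and 323 and 183 in b. It was lower in pituicytes c than in a in both pools, with a log2 fold change of -0.89 and an edgeR adjusted p of 0.96. *Apoe*, the lipid carrier, had 2128 and 2214 CPM in pituicytes c and *Vim*, an intermediate filament of glia, 102 and 79.6. Of the classical astrocyte markers, *Gfap* gave 1 UMI and *S100b* none in the 54 cells.

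Pituicytes c had the highest mitochondrial share of the 3 clusters. The 13 mitochondrially encoded protein genes took 19.1% of the summed UMIs in pool 1 and 16.7% in pool 2, a mean of 17.9% ± 1.69 (SD, n = 2). They took 11.2 and 9.72% in pituicytes a (10.5% ± 1.06) and 16.9 and 15.2% in pituicytes b (16.02% ± 1.22). The values of pituicytes c lay above those of a by more than the spread between pools. The ranges of c and b overlapped, with c above b within each pool.

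Single cells showed the same order. In pool 1 the share of pituicytes c ran from 3.59% to 24.9%, with a median of 21.3%, and in pool 2 from 6.95% to 22.9%, with a median of 18.0%. The medians were 11.4 and 9.09% in pituicytes a and 17.4 and 16.1% in b. Of the cells of pituicytes c, 34 of 38 in pool 1 and 6 of 16 in pool 2 exceeded the highest cell of pituicytes a of their pool, and 12 of 38 and 3 of 16 exceeded the highest cell of b. The cluster was singled out for this share, and its medians lay above those of a and b in both pools. Most of its cells exceeded the highest cell of a in pool 1 only. In neither pool did most exceed the highest cell of b.

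**Figure D2:**
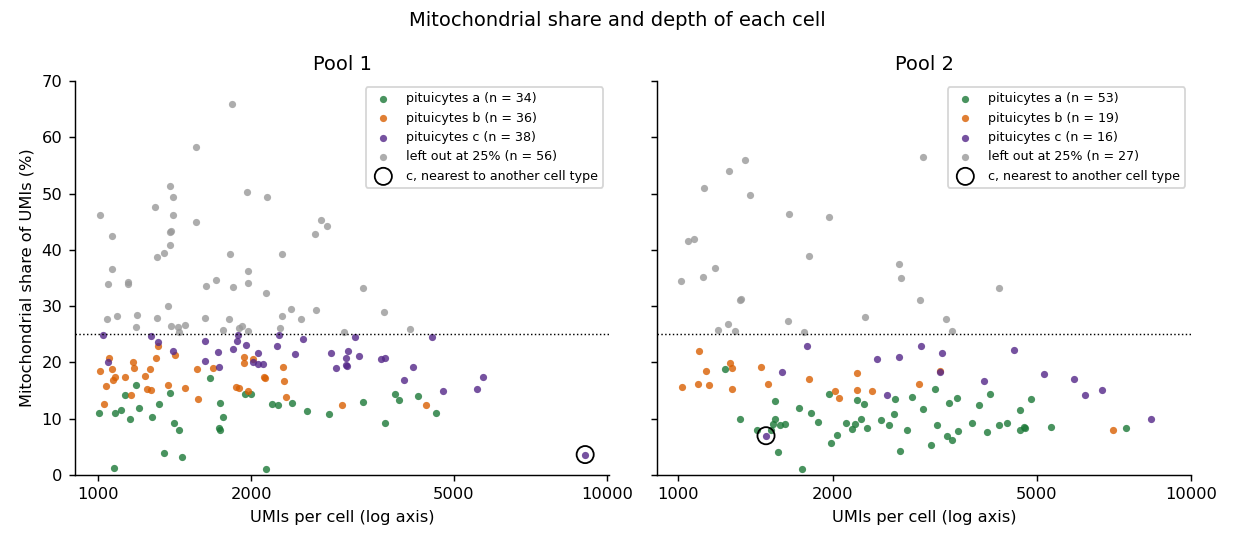
Mitochondrial share of UMIs (%) against UMIs per cell (log axis), 1 point per barcode, for pool 1 and pool 2. Colours are pituicytes a, b and c and the 83 barcodes left out at the 25% limit (dotted line), and black rings mark the 2 cells of pituicytes c whose expression lay nearest to another cell type; most cells of c in pool 1 sit at 20 to 25%, just under the limit.

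The cells also lay close to the limit of 25% that the study set on this share. In pool 1, 26 of 38 cells had a share between 20 and 25%, as had 6 of 16 in pool 2. The 3 highest cells inside the limit had 24.9, 24.8 and 24.8%, and the 3 lowest barcodes outside it had 25.36, 25.36 and 25.40%. All 3 inside were from pool 1.

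The mitochondrial share and depth did not keep the same order across the 3 clusters. Compared with a, c had a higher share and more UMIs per cell, and b a higher share and fewer. Pituicytes c held 2350.5 UMIs in the median cell of pool 1 and 3252 in that of pool 2, beside 1731 and 2639 in a and 1393 and 1493 in b, and were the highest of the 3 clusters in both pools. UMIs of nuclear genes alone had medians of 1822 and 2603.5 in pituicytes c, 1545 and 2343 in a and 1133 and 1253 in b. UMIs of mitochondrial genes had medians of 518.5 and 670.5 per cell in pituicytes c, 183.5 and 231 in a and 255 and 278 in b. Pituicytes c and b, close in mitochondrial share, thus differed in depth, with more UMIs of both genomes in c. The medians of genes detected were 1106.5 and 1535.5 per cell in c, 881.5 and 1318 in a and 816 and 885 in b.

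Among the cells of pituicytes c, those with more UMIs had a lower mitochondrial share in pool 1, with a Pearson correlation of -0.65 between the log of UMIs and the share over 38 cells of 1 library. In pool 2 it was -0.18 over 16 cells. Without the 2 cells nearest to another cell type, which are described below and have a low share, it was -0.54 over 37 cells in pool 1 and -0.61 over 15 in pool 2. Both quantities share the UMI total, and these values are descriptions.

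The excess over pituicytes a was spread over the mitochondrial genome. The genes of complex IV were *mt-Co1*, *mt-Co2* and *mt-Co3*. *mt-Co1*, the catalytic subunit of cytochrome c oxidase, had 37867 and 33211 CPM in pituicytes c, 17593 and 20219 in a and 29276 and 30366 in b. *mt-Co3* had 42133 and 37910 CPM in pituicytes c, 25695 and 22140 in a and 41122 and 37256 in b. For both genes the 2 pools of c lay above those of a without overlap, and for *mt-Co3* c and b differed by less than the spread between pools.

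*mt-Cytb*, the cytochrome b of complex III, had 18985 and 17139 CPM in pituicytes c, 10952 and 9467 in a and 16089 and 14803 in b. *mt-Nd1*, a subunit of complex I, had 17777 and 17203 CPM in pituicytes c, 10793 and 8641 in a and 15546 and 13650 in b. *mt-Atp6*, part of the proton channel of ATP synthase, had 36984 and 32128 CPM in pituicytes c, 23655 and 18160 in a and 34163 and 29789 in b. These 3 genes were higher in c than in b within each pool, by 1.18 and 1.16 times for *mt-Cytb*, 1.14 and 1.26 times for *mt-Nd1* and 1.08 and 1.08 times for *mt-Atp6*.

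Over all 13 genes the ratio of c to a had a median of 1.63 in pool 1 and 1.68 in pool 2, with 12 of 13 genes above 1 in pool 1 and 13 of 13 in pool 2. The exception was *mt-Nd6*, the gene encoded on the opposite strand to the others, at 0.43 in pool 1 and 2.19 in pool 2, on 55.8 and 143 CPM in c. The ratio of c to b had a median of 1.09 in pool 1 and 1.16 in pool 2, with 11 and 10 of 13 genes above 1. *mt-Nd3* was lower in c than in b in both pools (0.94 and 0.89).

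The mixture of mitochondrial transcripts differed by a few percentage points between clusters. *mt-Co3* made up 22.03 and 22.6% of the mitochondrial UMIs of pituicytes c, 22.9 and 22.8% of those of a and 24.4 and 24.6% of those of b. *mt-Co1* made up 19.8% in both pools of c, 15.7 and 20.8% in a and 17.3 and 20.03% in b, so that c lay within the range of a.

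**Figure D3:**
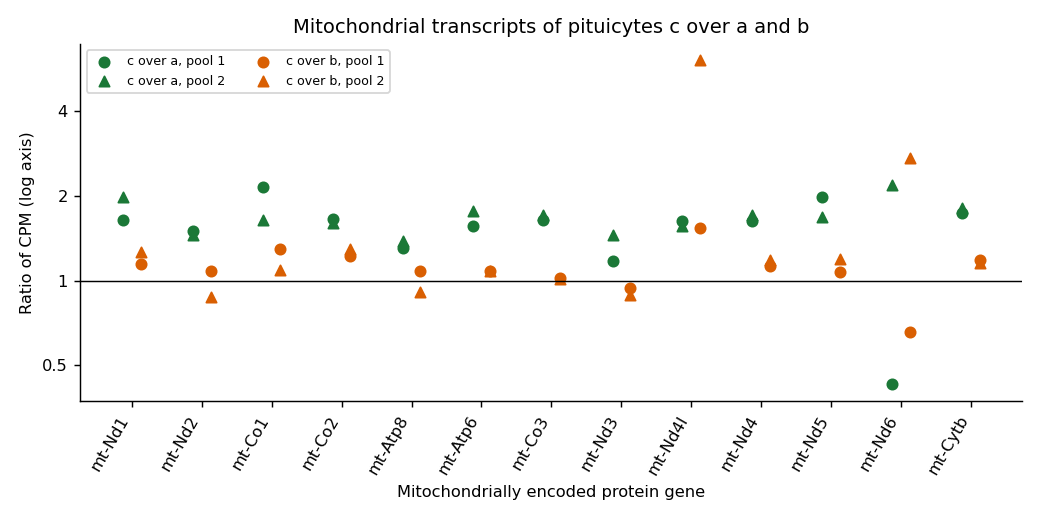
Ratio of CPM (log axis) of pituicytes c to a (green) and to b (orange) for the 13 mitochondrially encoded protein genes, with circles for pool 1 and triangles for pool 2. The ratios to a centre on 1.63 and 1.68 and those to b on 1.09 and 1.16; *mt-Nd6* and *mt-Nd4l*, the genes that vary most between pools, have low counts.

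None of the 13 genes was called in the fit of the 6 sums, where the log2 fold change over a was 1.03 for *mt-Co1* (SE 0.33, edgeR adjusted p = 0.64) and 0.85 for *mt-Co3* (SE 0.34, edgeR adjusted p = 0.91). Within a pool, all 3 clusters stem from the same 5 mice and 1 library. With the pool as a block, 7 of the 13 were called higher than in a, where 12 of 2764 genes were called (0.434%), 11 of them higher (0.398%). Blocked, the log2 fold change reached 1.02 for *mt-Co1* (SE 0.12, edgeR adjusted p = 1.0e-06) and 0.85 for *mt-Co3* (SE 0.10, edgeR adjusted p = 1.5e-06). Against the mean of a and b, where 11 genes were called (0.398%), 10 of them higher (0.362%), 7 of the 13 were called higher as well, and none against b. The share that was used to describe the cluster is the sum of these genes, so their calls add no separate evidence.

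Nuclear genes of the respiratory chain had a median log2 fold change of -0.01 against the mean of a and b, beside 0.04 over all genes tested. Of the 77 nuclear genes of oxidative phosphorylation 73 passed the filter, and 0 were called in either direction, as were 0 of the 13 mitochondrial genes without the block, where 0.145% of all genes were called. In the 13 mitochondrial genes the median was 0.54, and 0.56 without the 2 cells described below. *Cox6c*, a nuclear subunit of the same complex as *mt-Co1*, had 1561 and 1880 CPM in pituicytes c, 1780 and 2039 in a and 1731 and 2227 in b. *Cox8a* had 1115 and 1242 CPM in pituicytes c and *Cox7c* 911 and 1099. *Cox6c* and *Cox7c* lay below both a and b in each pool, and *Cox8a* lay above both in pool 1 and below both in pool 2.

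*Malat1*, a long non-coding RNA retained in the nucleus, was lower than in a. It took 7.58% of the UMIs of pituicytes c in pool 1 and 4.03% in pool 2, beside 12.8 and 8.89% in a and 12.3 and 2.62% in b. Pituicytes c were below a in both pools, and below b in pool 1 only. Against a its log2 fold change was -0.78 (edgeR adjusted p = 0.99), and with the pool as a block -0.89 (SE 0.18, edgeR adjusted p = 0.0065). *Meg3*, another nuclear-retained RNA, had 2862 and 1911 CPM in pituicytes c, 2836 and 3075 in a and 4463 and 3275 in b. *Kcnq1ot1* had 585 and 366 CPM in pituicytes c. None of the 4 tested genes of this list was called against the mean of a and b without the block, where 0.145% of all genes were called, and their median was -0.43.

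Before the genes that were called, 2 cells have to be described, because the calls of *Cd52* and *Tmsb10* rested on them. Each cell of pituicytes c had a weight of at least 0.998 in the mean of its own cluster, these 2 included. When each cell was set instead against the 11 deposited means by correlation, with mitochondrial genes left out, 52 of the 54 lay nearest to a pituicyte mean and 2 did not. Both had a low mitochondrial share and no UMI of the 4 markers.

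The first, in pool 1, had 9070 UMIs, the most of any cell of pituicytes c, a mitochondrial share of 3.59% and its nearest mean in the cluster named resident T cell-like. It held 86 UMIs of *Cd74*, the invariant chain of MHC class II, 44 of *H2-Aa*, 35 of *H2-Ab1* and 35 of *H2-Eb1*, which encode class II molecules, and none of *Cd3d*, a part of the T-cell receptor complex. The second, in pool 2, had 1483 UMIs, a share of 6.95% and its nearest mean in microglia a/macrophage, with 54 UMIs of *Apoe*, 12 of *C1qa*, 8 of *Ctss* and 8 of *Tyrobp*. Neither is named here. Without them the mitochondrial share of pituicytes c was 20.6 and 17.0% and the median 2267 and 3272 UMIs per cell, and the results below are given with all 54 cells and with 52. The fits with 52 cells also leave out 2 cells of pituicytes b that lay nearest to IL cells, without which the share of b was 17.2 and 16.8%, so that c and b were close in pool 2.

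**Figure D4:**
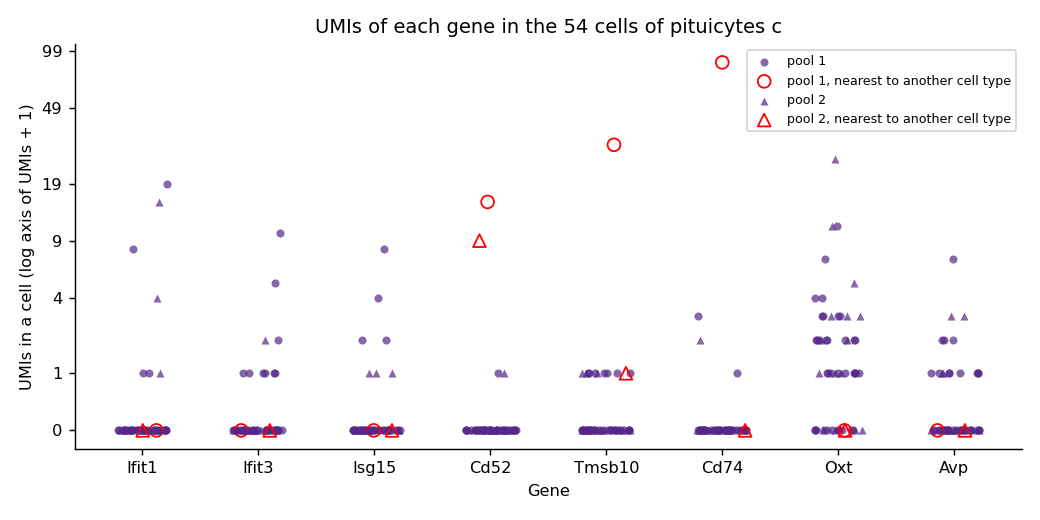
UMIs of 8 genes in each of the 54 cells of pituicytes c, on a log axis of UMIs + 1 with points spread sideways at random. Circles are pool 1, triangles pool 2, and open red symbols the 2 cells nearest to another cell type; *Cd52*, *Tmsb10* and *Cd74* peak in the open symbols, while *Ifit1*, *Oxt* and *Avp* peak in other cells.

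With all 54 cells, 3 of 2764 genes (0.109%) were called higher in pituicytes c than in the mean of a and b, *Ifit1*, *Cd52* and *Tmsb10*, and 1 lower (0.0362%), *Pomc*. Against a the calls were 4 of 2764 genes (0.145%), all higher, and against b 1 gene (0.0362%), lower. *Tmsb10* and *Pomc* were outside the rule for named genes, since *Tmsb10* did not exceed b in pool 2 and *Pomc* did not lie below a in pool 1, and are named because the calls are few. Without these 2 cells and the 2 of pituicytes b, 1 gene of 2685 remained called against the mean (0.0372%) and against a (0.0372%), *Ifit1* in both, and none against b, where 80 genes had an unadjusted p under 0.05. As described below, *Ifit1* passed the filter on low counts only through c.

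*Cd52*, a surface glycoprotein of lymphocytes and macrophages, had 149 and 159 CPM in pituicytes c, 0 and 6.56 in a and 17.0 and 26.2 in b. Its log2 fold change over the mean of a and b was 3.82 (SE 0.74, edgeR adjusted p = 0.0042), and 4.82 without pool 2 and 3.47 without pool 1. Pituicytes a held 1 UMI of *Cd52* and b 2. It thus passed the filter on low counts only through c, and no conclusion is drawn from its adjusted p. Of its 26 UMIs in pituicytes c, 24 were in the 2 cells, and the remaining 52 cells had 10.2 and 16.3 CPM, too few for the test. *Tmsb10*, which encodes an actin-binding thymosin, had 353 CPM in pool 1 and 63.7 in pool 2 and a log2 fold change of 2.21 (SE 0.49, edgeR adjusted p = 0.020), with 32 of its 42 UMIs in the 2 cells. With the pool as a block the edgeR adjusted p was 0.067. Without pool 2 its log2 fold change was 3.08 and without pool 1 0.35. Against a, *Tmsb10* was called without the block (log2 fold change 3.19, edgeR adjusted p = 0.0031) and with it (2.74, edgeR adjusted p = 0.021). The calls of *Cd52* and *Tmsb10* thus rested on the 2 cells.

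*Pomc*, the prohormone of IL cells, had 1041 and 191 CPM in pituicytes c, 376 and 269 in a and 13849 and 19309 in b. Against b the log2 fold change was -4.58 (SE 0.43, edgeR adjusted p = 4.6e-12), and against the mean of a and b -1.70 (SE 0.38, edgeR adjusted p = 0.020). Of the 1553 UMIs in pituicytes b, 1417 were in its 2 cells nearest to IL cells. Without them and the 2 cells of c the log2 fold change against the mean was -0.14 and against b -1.42 (edgeR adjusted p = 1.0 for each). Without pool 1 the log2 fold change was -3.53 against the mean and -6.62 against b, and without pool 2 it was -1.06 and -3.72. Of the 124 UMIs in pituicytes c, 62 were in 1 cell. *Pomc* also made up 1.57% of the UMIs of pool 1 barcodes with 1 to 50 UMIs, which hold free RNA, and its part in these values was not tested.

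*Ifit1* encodes an RNA-binding protein of the antiviral response that interferon induces. It had 269 and 319 CPM in pituicytes c, 14.5 and 59.0 in a and 84.9 and 52.4 in b, so that both pools of c lay above all 4 values of the other clusters. Its log2 fold change over the mean of a and b was 2.41 (SE 0.43, edgeR adjusted p = 0.0015) and over a 2.81 (SE 0.50, edgeR adjusted p = 0.0016). Over b it was 2.02 (edgeR adjusted p = 0.35). With 52 cells the change over the mean was 2.38 (SE 0.42, edgeR adjusted p = 0.038). Among cells with a mitochondrial share of 12 to 20%, 11 and 8 of them in pituicytes c, it was 4.47 (SE 0.80, edgeR adjusted p = 0.021). No cell of pituicytes a in that range held a UMI of *Ifit1*, and the larger change came from this absence. DESeq2 did not call it (2.51, SE 0.72, adjusted p = 1.0). *Ifit1* passed the filter on low counts only through c, as *Cd52* did, and no conclusion is drawn from its edgeR adjusted p values.

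Few cells carried these UMIs. *Ifit1* was found in 7 of the 54 cells, with 49 UMIs, of which 19 were in 1 cell of pool 1 and 15 in 1 cell of pool 2. The next cells had 8 and 4 UMIs. All 4 lay nearest to the mean of pituicytes c and held 18, 24, 20 and 13 UMIs of pituicyte markers. In pituicytes a, 5 of 87 cells held 10 UMIs and in b 5 of 55 held 7. The mean of the cluster thus describes a small number of its cells.

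The 4 cells were looked at for other interferon-induced genes, chosen after the values of *Ifit1* were seen. *Ifit3*, of the same family, had 10, 2, 2 and 0 UMIs in them and *Isg15*, a ubiquitin-like modifier, had 4, 1, 2 and 1. Over pituicytes c *Ifit3* had 214 and 31.9 CPM (43.4 and 32.8 in a, 84.9 and 0 in b) and *Isg15* 149 and 47.8 (28.9 and 13.1 in a, 136 and 183 in b). Neither passed the threshold (edgeR adjusted p = 0.81 and 0.99), and *Isg15* was not higher than in b in pool 2. At least 5 UMIs of *Ifit1*, *Ifit3* and *Isg15* together were found in 5 cells of pituicytes c, 1 of a and 2 of b. This count includes *Ifit1*, which prompted it, and cells of c held more UMIs, so no conclusion is drawn from it. *Ifi27l2a*, also induced by interferon, had 288 and 350 CPM in pituicytes c, 101 and 72.1 in a and 187 and 498 in b, and was called against a only (log2 fold change 2.03, SE 0.47, edgeR adjusted p = 0.034; with 52 cells 1.92, adjusted p = 0.51).

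*Ifit1* and *Ifit3* lie near each other on chromosome 19 of the mm10 genome, *Ifit1* at chr19:34640871-34650009 on the plus strand. Their promoters and that of *Isg15* are shown because interferon acts on such genes through the interferon-stimulated response element. Each is the window from 250 bases before to 50 bases after the start of transcription, from RefSeq (GRCm38.p6), 5′ to 3′ on the strand of the gene. Capitals mark matches to GAAANNGAAA on either strand, where N is any base. Matches on the opposite strand read TTTCNNTTTC, and the 3 matches of *Isg15* overlap.
Ifit1, chr19:34640639-34640938: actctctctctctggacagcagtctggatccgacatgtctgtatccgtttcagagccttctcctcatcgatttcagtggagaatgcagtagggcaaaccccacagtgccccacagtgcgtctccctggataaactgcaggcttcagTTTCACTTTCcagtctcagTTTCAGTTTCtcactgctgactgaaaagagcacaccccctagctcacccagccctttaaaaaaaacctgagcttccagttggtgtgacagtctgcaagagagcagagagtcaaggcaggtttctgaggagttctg
Ifit3, chr19:34583279-34583578: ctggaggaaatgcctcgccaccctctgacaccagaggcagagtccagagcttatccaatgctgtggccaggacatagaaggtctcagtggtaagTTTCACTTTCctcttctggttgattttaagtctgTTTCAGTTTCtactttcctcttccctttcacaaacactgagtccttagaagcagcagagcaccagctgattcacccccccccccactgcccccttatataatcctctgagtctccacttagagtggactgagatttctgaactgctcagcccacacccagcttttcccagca
Isg15, chr4:156200769-156201068: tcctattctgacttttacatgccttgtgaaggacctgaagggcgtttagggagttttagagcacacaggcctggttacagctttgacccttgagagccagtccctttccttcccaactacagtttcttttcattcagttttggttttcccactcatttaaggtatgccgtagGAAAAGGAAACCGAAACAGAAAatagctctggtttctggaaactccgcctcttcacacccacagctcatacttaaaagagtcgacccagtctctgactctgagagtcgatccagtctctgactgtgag

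*Ifit1* and *Ifit3* had 2 matches each, both of the form on the opposite strand, and *Isg15* had 3. A match was found in 1131 of 32851 RefSeq promoter windows of this length (3.44%). A match describes the letters in the window and not the binding of a factor.

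The hormones of the NH are made in the hypothalamus and released from axon terminals that pituicytes surround. *Oxt*, the oxytocin precursor, had 585 and 924 CPM in pituicytes c, 420 and 334 in a and 560 and 760 in b. *Avp*, the vasopressin precursor, had 195 and 127 CPM in pituicytes c, 57.9 and 39.3 in a and 17.0 and 78.6 in b, so that both pools of c lay above a and b. The log2 fold change over the mean of a and b was 1.99 for *Avp* (SE 0.52, edgeR adjusted p = 0.18) and 0.66 for *Oxt* (SE 0.32, edgeR adjusted p = 0.99). Neither passed the threshold. *Avp* held 10 UMIs in a and 4 in b and passed the filter on low counts only through c, so no conclusion is drawn from its adjusted p.

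*Oxt* was found in 36 of the 54 cells, 66.7%, against 39.1% in a and 38.2% in b. With every cell thinned to 1000 UMIs the shares were 35.2% (interval 22.7 to 49.4%) in c, 24.1% in a (15.6 to 34.5%), 29.1% in b (17.6 to 42.9%) and 11.6% in macrophage/microglia, which should lack the gene (median of 1739 UMIs per cell). The pools did not give the same order, since the thinned shares were 31.6% in c, 29.4% in a and 19.4% in b in pool 1 and 43.8, 20.8 and 47.4% in pool 2. These intervals are over cells, which are not replicates. *Oxt* made up 0.630% of the UMIs of the barcodes with 1 to 50 UMIs in pool 1, and mitochondrial genes 50.6%. The part of free RNA in either level was not tested.

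Of 84 cytosolic ribosomal protein genes, 80 were tested and none was called, where 0.145% of all genes were called. Of those tested, 78 had a fold change above 0, as had 1462 of all 2764 genes, with a median of 0.31 beside 0.04 over all genes. The 84 genes summed to 129510 and 152851 CPM in pituicytes c, 96978 and 134549 in a and 91238 and 154920 in b. *Rps29* had 6198 and 7152 CPM in pituicytes c, *Rpl41* 3949 and 7439 and *Rpl39* 5325 and 5878. With 52 cells the median was 0.14 and the sum in pool 1 was 103721 CPM, since the cell with 9070 UMIs had 41.0% of its UMIs on these genes.

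Immediate early genes, which neurons and glia switch on within minutes of stimulation and which tissue dissociation also induces, split the pools of pituicytes c. Their sum was 4767 CPM in pool 1 and 1450 in pool 2, beside 4528 and 4071 in a and 4345 and 4244 in b. *Fos* had 790 and 191 CPM in pituicytes c, *Jun* 651 and 112 and *Junb* 437 and 143. None of the 18 genes tested was called, where 0.145% of all genes were called, and their median was -0.34. Pool 2 of c was thus the lowest of the 6 sums and pool 1 of c the highest.

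Stress and metabolic lists gave no calls, where 4 of all 2764 genes tested were called (0.145%). With calls this rare, their absence from a list does not show that the clusters were alike. Of the heat shock genes 11 were tested, with a median of 0.07. *Hsp90ab1* had 790 and 685 CPM in pituicytes c, *Hspa8* 938 and 510 and *Hsp90aa1* 483 and 430. Of the endoplasmic reticulum stress and folding genes 14 were tested, with a median of 0.18, led by *Hsp90b1*, *Calr* and *Manf*, which had 409 and 303 CPM. Of the apoptosis and p53 target genes only *Bax*, which opens the outer mitochondrial membrane, had enough counts, with 65.0 and 47.8 CPM in pituicytes c, 116 and 45.9 in a and 50.9 and 131 in b. The 13 others were too low to test.

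Of the oxidative stress genes 7 were tested, with a median of -0.04, among them *Gpx4*, which reduces lipid peroxides, with 520 and 796 CPM, *Prdx1* with 511 and 924 and *Gpx1* with 204 and 350. The metallothioneins *Mt1*, *Mt2* and *Mt3* bind zinc and copper. *Mt3*, the form of the nervous system, had 567 and 1019 CPM in pituicytes c, 463 and 479 in a and 594 and 707 in b, a log2 fold change of 0.56 (SE 0.32, edgeR adjusted p = 0.99). *Mt1* had 2202 and 2166 CPM, within the range of a and b, and *Mt2* 799 and 876, below all 4 values of a and b. The 12 glycolysis and hypoxia genes had a median of 0.01, with *Aldoc* at 362 and 335 CPM, *Aldoa* at 372 and 303 and *Gapdh* at 325 and 239. The 5 sterol and fatty acid synthesis genes had a median of 0.13, with *Scd2* at 381 and 812 CPM.

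**Figure D5:**
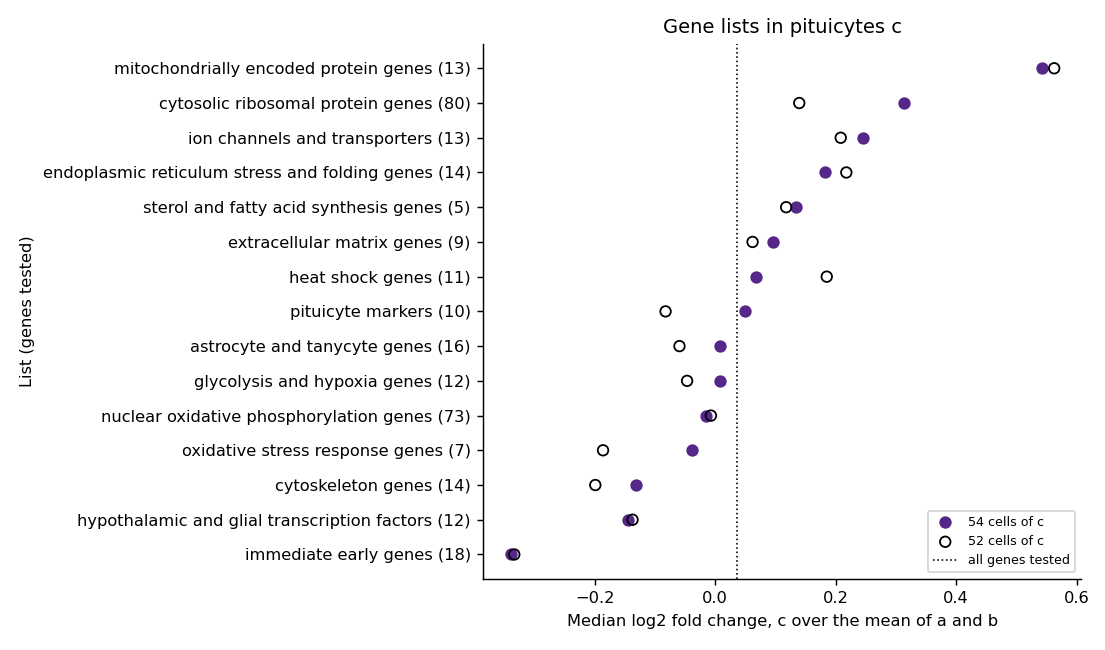
Median log2 fold change of pituicytes c over the mean of a and b for each gene list with at least 5 genes tested (number in brackets). Filled points use 54 cells of c, open points 52, and the dotted line is the median of all genes tested, 0.04; mitochondrial genes lie highest, at 0.54, and immediate early genes lowest, at -0.34, among the lists drawn.

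Genes of glial function gave no call in the lists of ion channels and transporters, extracellular matrix genes, transcription factors and astrocyte and tanycyte genes, where 0.145% of all genes tested were called. With 2 pools this does not show that the clusters were alike. *Slc1a3*, the glutamate transporter of astroglia, had 883 and 1131 CPM in pituicytes c, 1056 and 813 in a and 849 and 419 in b. *Slc6a6*, which takes up taurine, an osmolyte of pituicytes, had 623 and 876. Of the 13 ion channel and transporter genes tested none was called and 10 were above 0, as were 1462 of all 2764 genes, with a median of 0.25 beside 0.04 over all genes tested. *Ano1*, a chloride channel chosen after its values were seen, had 223 and 382 CPM in pituicytes c, 188 and 203 in a and 187 and 131 in b, the highest value of each pool in c (log2 fold change 0.76, SE 0.37, edgeR adjusted p = 0.99). *Aqp4* and *Kcnj10*, the water and potassium channels of many astrocytes, had no UMI in the 54 cells.

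Extracellular matrix genes had a median of 0.10 over 9 genes, with *Ptn*, a growth factor of the matrix, at 3615 and 4683 CPM in pituicytes c, *Igfbp5* at 1626 and 2373 and *Timp3* at 530 and 637. Transcription factors had a median of -0.15 over 12 genes. *Hes1*, a target of Notch signalling, had 706 and 255 CPM in pituicytes c, 1114 and 990 in a and 407 and 262 in b, with a log2 fold change over a of -0.93 (edgeR adjusted p = 0.91). *Nfib* had 493 and 796 CPM and *Six3* 428 and 510. Astrocyte and tanycyte genes had a median of 0.01 over 16 genes, with *Mest* at 2630 and 3329 CPM, *Cst3* at 2909 and 2533 and *Dbi* at 1152 and 892. Of the 14 cytoskeleton genes, 1 was called, *Tmsb10*, beside 0.145% of all genes tested. As given above, its calls rested on the 2 cells, and the block by pool ended the one against the mean only. The most abundant, *Tmsb4x*, had 3921 and 2596 CPM in pituicytes c and 1735 and 1778 with 52 cells, beside 1736 and 1941 in a and 2087 and 1729 in b. It was called with the pool as a block only (log2 fold change 0.85, SE 0.19, edgeR adjusted p = 0.022), and 305 of its 585 UMIs were in the 2 cells.

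Markers of other cell types were low in pituicytes c outside the 2 cells, except that the sum of IL markers in pool 1 exceeded that of a. The sum of IL markers and the level of *Ccl5* did not fall without those cells. The sum of 15 macrophage/microglia markers was 1217 and 1370 CPM, and 304 and 147 CPM with 52 cells, beside 203 and 151 in a and 543 and 314 in b. *Cd74* led the sum in pool 1, with 836 CPM and 31.9 in pool 2, where *C1qa*, *C1qb* and *C1qc* had 191, 175 and 143 CPM. *Csf1r* and *P2ry12* were at 0. The 12 IL markers summed to 1254 and 335 CPM, and 1289 and 343 with 52 cells, led by *Pomc* at 1041 and 191 CPM. Their sums were 521 and 459 CPM in a and 14324 and 20829 in b. *Pcsk1*, *Chgb* and *Pax7* were at 0. Of 11 T-cell markers 8 were in the files, and 7 of these were at 0, *Cd3d*, *Cd3e* and *Cd3g* among them. The other, *Ccl5*, had 0 and 112 CPM, and 0 and 114 with 52 cells, from 7 UMIs in 1 cell. The sums were 27.9 and 15.9 CPM for 9 epithelial markers, 27.9 and 63.7 for 7 of vascular and leptomeningeal cells, 0 in both pools for 8 of pericytes and smooth muscle, 74.3 and 15.9 for 8 of oligodendrocytes and 55.8 and 15.9 for 5 of erythrocytes. Of 9 endothelial markers *Flt1*, *Cdh5*, *Cldn5* and *Esam* were at 0, and the sum of 427 and 398 CPM was mostly *Pecam1*, at 372 and 366 CPM here and 333 and 511 in a. The 8 anterior lobe markers summed to 65.0 and 191 CPM, led by *Gh*.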

How the data were processed

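For each of 2 pools the deposited file held UMI counts by gene and droplet barcode, made by the authors with Cell Ranger 2.0.0 and a prebuilt mm10 reference with 1500 forced cells. A deposited table gave the mean of each cluster with both pools combined, made by the authors with Seurat 2.3, whose unit is UMIs scaled to 10000 per cell. The deposited counts are not normalized, and the means are. The matrix of pool 1 listed 737280 barcodes and that of pool 2 1500. The limits of the study (1001 to 9999 UMIs, 401 to 4999 genes, less than 25% mitochondrial UMIs) left 273 and 255 cells. The 11 means over 15025 genes were solved by least squares on these cells, and each cell was given to its cluster of largest weight. In pituicytes c no cell had a weight above 0.0022 in another mean, and the mean of its cells differed from the deposited one by over 0.05 UMIs per 10000 for 32 genes. No doublet caller was run. Cluster names are those of the deposited table, and neural progenitor a and b are called IL cells, since they hold the *Pomc*.

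Counts were summed per pool and cluster and fitted with edgeR 4.0.16 (R 4.3.3, with DESeq2 1.42.0 as an alternative; TMM, minimum count of 5, minimum total of 15, quasi-likelihood test, 3 residual degrees of freedom, common dispersion 0.0446), for c against the mean of a and b, against a and against b. Calls were made where the adjusted p (Benjamini-Hochberg) did not exceed 0.05 over the 2764 genes tested. Sums of a pool share mice and library, which pairs them. Their deviations from the cluster means correlated across genes at 0.19 (a and b), 0.096 (a and c) and 0.10 (b and c). The fit was tested on simulated data, for c against the mean of a and b with 50 genes changed at each fold. Of 2-fold and 4-fold rises 12 and 86% were recovered. Of falls to 0.5 and 0.25 times 8 and 36% were recovered, and 3 calls were false. Python 3.11.15, numpy 2.4.6 and scipy 1.17.1 were used for the rest, with thinning to 1000 UMIs per cell and exact Clopper-Pearson intervals. Named genes were the pituicyte markers, the 13 mitochondrial genes, up to 10 genes called in each direction that differed the same way from a and b in both pools, and the 3 tested genes of highest mean CPM in each other list, of which some are given as list values only and 1 is not reported here. The members and the gene lists were chosen with earlier results of these data known. Free RNA was read in pool 1, from 157608 barcodes holding between 1 and 50 UMIs.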

Additional observations from a re-analysis of the deposited data

Results flagged for a closer look

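A signal appeared in barcodes outside the clustering. In both pools together 83 barcodes met the limits on UMIs and genes but had a mitochondrial share of 25% or more, 56 in pool 1 and 27 in pool 2, with median shares of 33.7 and 34.9%. By correlation with the 11 deposited means, mitochondrial genes left out, 33 of them lay nearest to pituicytes c, 26 to a, 0 to b, 14 to IL cells and 10 to other types. In pool 1 these were 21 to c and 24 to a, and in pool 2 12 to c and 2 to a. *Scn7a* was found in 53 of the 83 and *Col25a1* in 49. In the 33 nearest to c, which had a median of 1632 UMIs, *Col25a1* was found in 26 and *Scn7a* in 29, and per 1000000 UMIs of nuclear genes they held 2137 UMIs of *Col25a1* and 2671 of *Scn7a*, beside 1881 and 2218 in pituicytes c. The higher values came from pool 1, with 2247 and 2688 beside 1827 and 1804 in c, while in pool 2 they were 1879 and 2631 beside 1971 and 2908 in c. *Gja1* was found in 15 of the 33, at 872 UMIs per 1000000 of nuclear genes beside 696 in pituicytes c. *Vegfa* was found in 10 of the 33, at 534 beside 610 in c. It was lower in pool 1 (522 beside 666) and higher in pool 2 (564 beside 517). *Ifit1* was found in 3 of the 83, with 3 UMIs.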

How the results depend on the processing

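The number of genes called against the mean of a and b (4) was 11 with the replicate block, 0 with DESeq2 (29 at an unadjusted p under 0.05), 8 without a filter on low counts, 10 with all 11 clusters in the fit, and 1 each with thinned cells, without the cells nearest to another cell type and with cells of a 12 to 20% mitochondrial share. Against a (4) these were 12, 0 (33 unadjusted), 8, 8, 0 (44 unadjusted), 1 and 1, and against b (1) 7 without a filter, 8 with all 11 clusters, and 0 without the cells nearest to another type or at a 12 to 20% share (80 and 43 unadjusted). Both of those choices were made after the data were seen. With all 11 clusters the added calls over the mean were *Cd74*, *H2-Aa*, *H2-Ab1*, *H2-Eb1*, *Tyrobp* and *AW112010*. The replicate block ended the call of *Tmsb10* against the mean and changed no call against b. Calls of *Ifit1*, *Cd52* and *Pomc* against the mean and all 4 against a were kept. Those it added were mitochondrial genes in both comparisons, *Tmsb4x* against the mean and *Malat1* against a. Leaving out a pool leaves 1 sum per cluster, which gives fold changes and no count of calls. The mitochondrial share of c was 20.9% with ribosomal protein genes removed from the total and 19.7% as the median over cells, and 16.7 to 19.1% without one pool. Median UMIs per cell then ran from 2350.5 to 3252 and the share of pituicytes in c from 18.2 to 35.2%. Without pool 1 the log2 fold change of *Scn7a* was 0.72, and without pool 2 it was -0.23. For *Col25a1* it was 0.0041 without pool 1. For *mt-Nd6* against a it was 0.15 with both pools, 1.16 without pool 1 and -1.07 without pool 2. The sign also turned for *Col25a1* in other settings (0.039 without a filter, 0.10 thinned). Against a it turned for *mt-Atp8* (-0.065) and *mt-Nd3* (-0.27) at a 12 to 20% mitochondrial share, and for *mt-Nd6* (-0.0013) by library size alone. None of these was called. With 2 pools, the lack of a call does not show that clusters were alike.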
